A study of Homo sapiens with 12 samples.

Results

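KDM2B binding was compared between 2 human leukaemia cell lines that carry the BCR-ABL1 fusion, K562 and SUP-B15, and 5 that do not, REH, DND41, HPB-ALL, JURKAT and SIL-ALL. Peaks from any of the 7 lists were merged into a region where they overlapped by 1 bp or more, which gave 29071 regions. The regions with a peak of both BCR-ABL1 lines and of none of the 5 others were taken as those of the pair alone. There were 80 of them, 0.275% of all regions. The same count was made for each of the 21 pairs of lines, and again with equal numbers of top-scored peaks per list.

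K562 was derived from the blast crisis of a chronic myeloid leukaemia, and its fusion has the major breakpoint of BCR and is amplified. SUP-B15 is an acute lymphoblastic leukaemia line of B-cell precursors (B-ALL), with the minor breakpoint. REH is a B-ALL line with the ETV6-RUNX1 fusion, and the other 4 negative lines are acute lymphoblastic leukaemias of T cells (T-ALL). Fusion status and lineage are background knowledge of the lines and not stated in their labels. Since 4 of the 5 BCR-ABL1-negative lines are T-ALL lines, fusion status and lineage cannot be told apart in most comparisons, and REH is the single negative line with the lineage of a BCR-ABL1 line. The labels name no treatment; all lines were grown in IMDM with serum and the chromatin precipitated with the same KDM2B antibody. The series holds 12 libraries, 7 of KDM2B and 5 of input, with no input of DND41 or JURKAT. Each line had 1 KDM2B list from 1 library, so every p-value measures the spread between lines and libraries together, and the read depth behind a list is unknown.

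KDM2B carries a CXXC zinc finger that binds unmethylated CpG-rich DNA, a JmjC domain that demethylates histone H3, and an F-box with leucine-rich repeats. It brings a variant Polycomb complex 1 with PCGF1 and BCOR to CpG islands, where the complex ubiquitinates histone H2A. BCR-ABL1 is a constitutively active tyrosine kinase made by the joining of chromosomes 9 and 22, and it drives chronic myeloid leukaemia and a subset of B-ALL.

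In the lists as deposited, the BCR-ABL1 pair shared few regions that no other line had. Its 80 regions ranked 18 of the 21 pairs, and 18 pairs, itself included, had as many or more (exact permutation p = 0.857, one-sided). The other pairs ranged between 59 and 606 regions, with a median of 126. K562 with REH, which has no BCR-ABL1 fusion, had 106 regions, and K562 with a T-ALL line had 61 (DND41), 59 (HPB-ALL), 215 (JURKAT) and 85 (SIL-ALL). SUP-B15 with REH had 312, and SUP-B15 with a T-ALL line had 86 (DND41), 87 (HPB-ALL), 115 (JURKAT) and 131 (SIL-ALL). As deposited, the fusion pair thus stood below every pair of SUP-B15 with a negative line. It also stood below 3 of the 5 pairs of K562 with a negative line. Without REH the count was 139 (exact permutation p = 0.667, one-sided).

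List length touches these counts, since a longer list can both add and remove regions of a pair. With 5942 top-scored peaks per list, the length of the K562 list, 16239 regions remained and 130 of them (0.801%) belonged to the BCR-ABL1 pair alone, rank 9 of 21 against a median of 96 in the other pairs (exact permutation p = 0.429, one-sided). K562 with REH had 153 regions and SUP-B15 with REH had 319 in these lists, so each BCR-ABL1 line again had more regions alone with REH than alone with the other. The order against the T-ALL lines turned, since every pair of SUP-B15 with a T-ALL line now had fewer than the fusion pair, 77 to 93. So did K562 with DND41 (72), HPB-ALL (97) and SIL-ALL (97), whereas K562 with JURKAT had 182. Counted whatever the other lines had, K562 shared more regions with SUP-B15 than with REH, 1766 against 1546 in equal lists and 1963 against 1811 as deposited. In equal lists K562 shared still more with DND41 (1813), JURKAT (1876) and SIL-ALL (1877), and fewer with HPB-ALL (1733). As deposited it shared more with each T-ALL line, whose lists were longer, than with SUP-B15 (2249 to 2730).

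**Figure D1:**
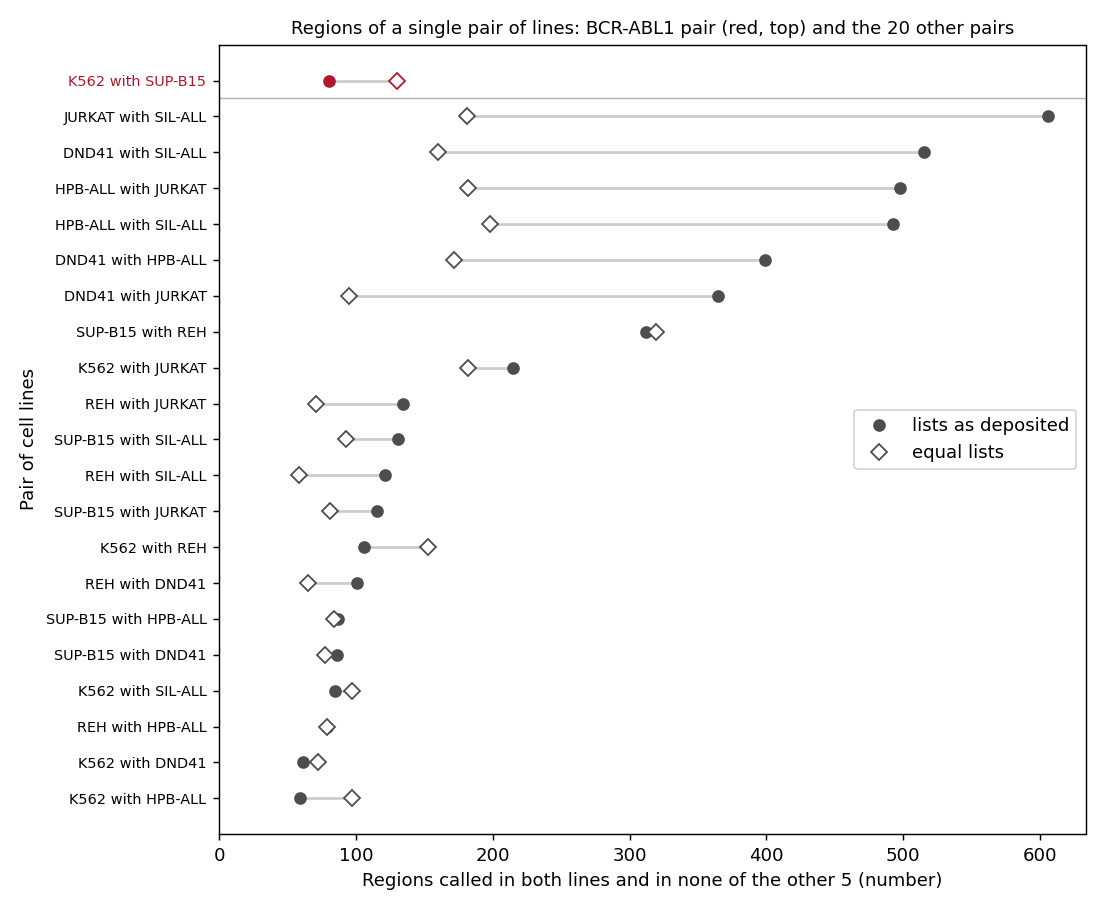
Regions with a peak of both lines of a pair and of none of the other 5 (x axis, number), for each of the 21 pairs (y axis), with the lists as deposited (filled circles) and with equal lists of top-scored peaks (open diamonds). The BCR-ABL1 pair, in red at the top, had 80 and 130 regions, within the range of the 20 other pairs on both counts.

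Most of what the BCR-ABL1 lines shared was also bound in the other lines. Both had a peak in 1963 regions (6.75% of all regions), rank 20 of the 21 pairs. Of these, 709 (36.1%) had a peak in all 5 BCR-ABL1-negative lines, 610 (31.1%) in 4, 266 (13.6%) in 3, 188 (9.58%) in 2 and 110 (5.60%) in 1, leaving the 80 (4.08%) with none. The shared regions therefore lay mainly at sites common to the leukaemia lines. Where a single negative line joined the pair it was REH in 56 regions, JURKAT in 32, SIL-ALL in 8, DND41 in 7 and HPB-ALL in 7. Where a single negative line was missing it was REH in 367 of the 610 regions, against 107 for HPB-ALL, 70 for SIL-ALL, 43 for JURKAT and 23 for DND41. Over all 29071 regions REH had a peak in 6458, the fewest of the 5 negative lines, against 9544 (HPB-ALL) to 11407 (SIL-ALL). The part of this in the counts was not tested.

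The regions of the pair alone held lower-scored peaks than the regions bound in every line. The median score percentile of the best K562 peak, a rank within the K562 list, was 49.6 in the 80 regions and 74.1 in the 709 regions of all lines. In SUP-B15 it was 50.02 and 81.6. The median width of the merged region was 761 bp with no negative line and 1695 bp with all 5, although a region merged from more lists is wider by construction. A wider region can also hold more peaks of a line, which can raise the percentile of the best one.

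**Figure D2:**
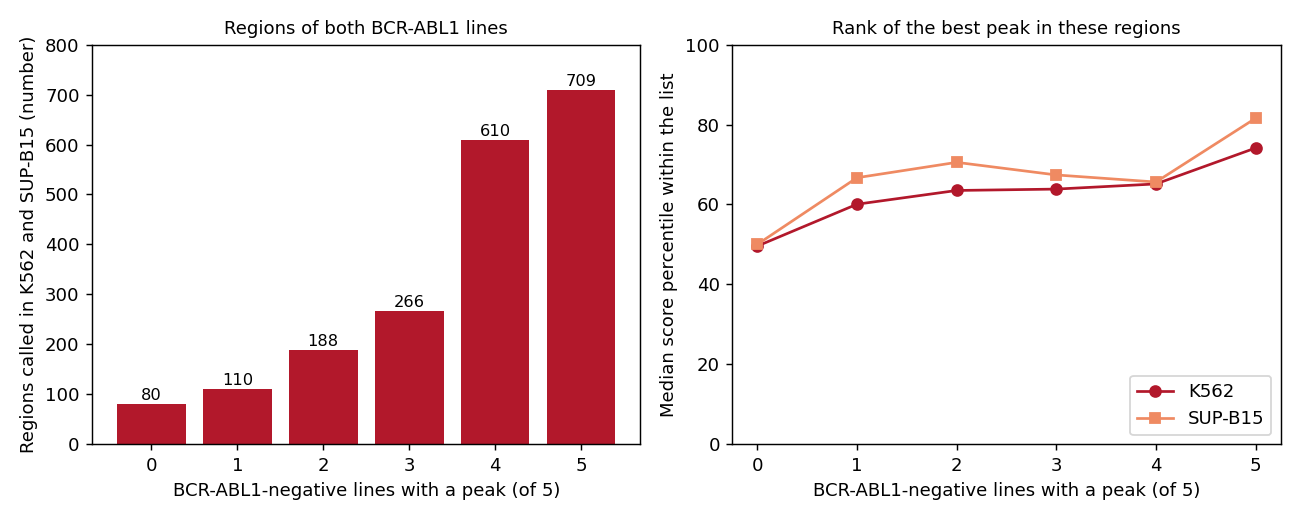
Left, regions with a peak of both K562 and SUP-B15 (y axis, number) by how many BCR-ABL1-negative lines also had one (x axis). Right, the median score percentile of the best peak in these regions within the K562 and the SUP-B15 list; the 80 regions of the pair alone lie lowest in both lists, at 49.6 and 50.02.

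The similarity of the 2 lines over all regions was measured with the phi coefficient, the correlation of called and not called across regions, which is 1 for lists that call the same regions. K562 with SUP-B15 had a phi of 0.199, rank 6 of 21 pairs (exact permutation p = 0.286, one-sided), against -0.00576 to 0.256 in the other pairs and a median of 0.142. In equal lists it was 0.0552, rank 16 (exact permutation p = 0.762, one-sided). When peaks were linked only where each covered at least 50% of the other, phi was 0.0724, the highest of the 21 pairs (exact permutation p = 0.0476, one-sided). K562 and SUP-B15 also had the widest peaks, with medians of 552 and 350 bp against 213 to 253 bp in the negative lines, and the part of width in this rank was not tested.

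REH allows a comparison within the B-ALL lineage: each other line can be set against SUP-B15, with the fusion, and REH, without it. K562 had a phi of 0.199 with SUP-B15 and 0.143 with REH, a difference of 0.0563. The T-ALL lines showed larger differences in the same direction, 0.107 for DND41, 0.104 for HPB-ALL, 0.0982 for JURKAT and 0.112 for SIL-ALL. SUP-B15 was thus closer than REH to all 5 partners, and the excess was least with the line that shares its fusion. In equal lists the difference was 0.0548 for K562 and lay between 0.0869 and 0.121 for the T-ALL lines. These differences share the SUP-B15 and REH lists and were not tested. The REH list covered 2.10 Mb, against 3.38 Mb in SUP-B15, and the part of covered length in these differences was not tested.

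The 80 regions of the pair alone were spread over 27 chromosome arms and 69 bands. Arm 1p held 10, arms 1q, 3p and 17q held 6 each, and band 1q32.1 held 3, the most of any band. Giemsa-light bands, which tend to be gene-rich, held 51 of them (63.75%), beside 68.0% of all K562 peaks and 69.7% of all SUP-B15 peaks. The regions stood near the middle of both lists: the mean of the 2 percentiles had a median of 47.1 and ran between 7.98 and 95.05. Both lines were at or above the 50th percentile in 19 regions and both below it in 20, and 4 regions were at or above the 80th percentile in both. The best peak ranked higher in K562 than in SUP-B15 in 38 of the 80. K562 covered more of the region in 54 of the 80, with a median of 623 bp against 420.5 bp in SUP-B15.

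Many of these regions lay beside a peak of a negative line. A peak of at least 1 negative line lay within 1 kb of 34 regions (42.5%), of REH for 19 and of JURKAT for 17, against 14 for DND41, 7 for SIL-ALL and 3 for HPB-ALL. Over the 21 pairs this share ranged between 20.5 and 65.1%, and the BCR-ABL1 pair ranked 15. In 11 regions the nearest such peak was over 100 kb away. With equal lists, 64 of the 80 were again regions of the pair alone.

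The region with the highest mean percentile lay in 6p21.1 (hg19, chr6:43476643-43478423), with scores of 523 in K562 and 227 in SUP-B15, and the nearest negative-line peak 6337 bp away in HPB-ALL. Scores are those the authors deposited, with no stated unit, and whether they share one scale across lists is unknown. The second lay in 13q34 (chr13:114565929-114567638), with scores of 197 in K562 and 334 in SUP-B15. Band 13q34 also holds GAS6, the ligand of the TAM receptor kinases. Next came 1p36.32 (chr1:3446964-3448230), scored 239 in K562 and 161 in SUP-B15, and 1p36.12 (chr1:22263021-22264075), scored 225 in K562 and 170 in SUP-B15. These 4 were the regions at or above the 80th percentile in both lists.

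The fifth, in 12q12 (chr12:42876668-42878268), had a score of 475 in K562, at the 96.9th percentile of its list, and of 108 in SUP-B15, at the 73.1st. Its nearest negative-line peak was 156511 bp away. Band 12q12 holds PRICKLE1, a planar cell polarity gene. The sixth lay in 2p21 (chr2:42274022-42275221; 267 in K562 and 123 in SUP-B15), and the seventh in 7p14.1 (chr7:43152362-43153517; 143 in K562 and 187 in SUP-B15), with the nearest negative-line peak 180301 bp away in DND41. The eighth, in 5q35.1 (chr5:172754493-172755676), had a JURKAT peak 158 bp from its edge. Peaks were not assigned to genes, so an overlap of these regions with the genes named here was not examined.

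The remaining 12 of the 20 highest regions had mean percentiles of 67.7 to 75.6. The BCR-ABL1 lines differed in percentile at several of them. The best peak ranked far higher in SUP-B15 than in K562 in 15q22.31 (chr15:64444043-64444934; score 77.6 in K562 and 310 in SUP-B15), in 3q21.2 (chr3:124604936-124606566; 82.5 in K562 and 266 in SUP-B15) and in 17q24.3 (chr17:68164537-68165538; 81.2 in K562 and 194 in SUP-B15). It ranked far higher in K562 in 1q32.1 (chr1:206680507-206681672; 227 in K562 and 78.0 in SUP-B15), a band that holds RASSF5, a Ras effector gene. The 17q24.3 region had the most distant negative-line peak of the 20, 565150 bp away in HPB-ALL, and the region in 10q23.31 (chr10:92617003-92617847) had its nearest 304062 bp away in JURKAT. By contrast, REH had a peak 43 bp from the region in 6p25.2 (chr6:2970925-2971690) and 171 bp from that in 15q22.31. In all, 6 of the 20 had a negative-line peak within 1 kb.

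**Figure D3:**
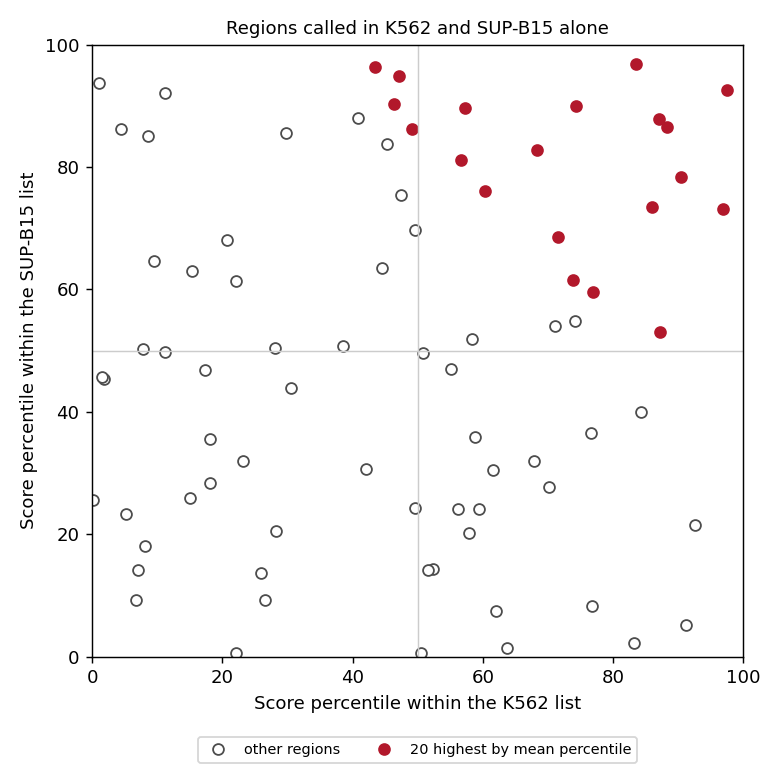
Score percentile of the best peak within the K562 list (x axis) and the SUP-B15 list (y axis) for the 80 regions of the pair alone; the 20 with the highest mean percentile are filled. Both lines were at or above the 50th percentile in 19 regions and below it in 20, and 4 were at or above the 80th in both.

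In the lists as deposited the reverse pattern was more frequent, and this order turned in equal lists, with 58 reverse regions beside 130 of the pair alone, and with 50% reciprocal overlap, with 86 beside 153. As deposited, in 227 regions (0.781% of all) all 5 BCR-ABL1-negative lines had a peak and neither BCR-ABL1 line did, rank 3 of the 21 splits (exact permutation p = 0.143, one-sided), against 7 to 370 in the other splits and a median of 30. The higher counts were 370 with K562 and REH left out and 239 with SUP-B15 and REH left out. The highest 3 splits as deposited were thus those that leave out 2 of the 3 lines that are not T-ALL. These 3 lines also had the shortest lists, 5942 to 8146 peaks against 12765 to 15304. Without REH, 880 regions had a peak of all 4 T-ALL lines and of neither BCR-ABL1 line, so the size of this set rests on REH. The 58 regions of equal lists were 0.357% of the regions there, rank 4 (exact permutation p = 0.190, one-sided). Rank 3 in equal lists was the split that leaves out REH and JURKAT, a T-ALL line, with 73 regions. The 5 negative lines had 1442 regions in common, of which 709 also had a peak of both BCR-ABL1 lines, 325 of SUP-B15 without K562 and 181 of K562 without SUP-B15. The share with neither was 15.7%.

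The strongest region without either BCR-ABL1 line lay in 20q13.33 (chr20:61637670-61640912), with scores of 126 in REH, 1405 in DND41, 669 in HPB-ALL, 892 in SIL-ALL and 418 in JURKAT. Its nearest K562 peak was 144639 bp away and its nearest SUP-B15 peak 33711 bp. It was followed by regions in 9q21.13 (chr9:78504890-78507343; mean percentile 93.3), 4q33 (chr4:170191208-170192657; 91.4), 8p11.23 (chr8:38126006-38127076; 90.9) and 2q35 (chr2:217497947-217499383; 90.8). A K562 peak lay within 1 kb of 10 of the 227 regions and a SUP-B15 peak within 1 kb of 13.

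The BCR-ABL1 lines had fewer peaks in the lists as deposited. K562 had 5942 and SUP-B15 had 7533, against 8146 in REH, 14944 in DND41, 12765 in HPB-ALL, 15304 in SIL-ALL and 14839 in JURKAT. The groups did not overlap in these lists, whose lowest scores differed (50 to 80), but REH lay far closer to SUP-B15 than to any T-ALL line. The means were 6738 ± 1125 (SD, n = 2) in the BCR-ABL1 lines and 13200 ± 2995 (SD, n = 5) in the negative lines, with an exact permutation p of 0.0476, two-sided, the minimum over 21 splits. The Benjamini-Hochberg adjusted value over the 8 tests was 0.127. When all lists were held to one score floor, the highest of the 7, the difference was -6261 peaks and the exact permutation p was 0.238. Among peaks scored 150 to below 300, REH had 541, fewer than K562 with 983 and SUP-B15 with 842. Among those scored 80 to below 100, REH had 1102, more than K562 with 763 and SUP-B15 with 1078. The separation by peak number thus did not hold at every score.

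Their peaks were also wider. The median width was 552 bp in K562 and 350 bp in SUP-B15, against 213 bp in REH, 213 bp in DND41, 253 bp in HPB-ALL, 223 bp in SIL-ALL and 240 bp in JURKAT. Here REH lay among the T-ALL lines, unlike for peak number. The mean was 451 ± 143 bp (SD, n = 2) in the BCR-ABL1 lines and 228 ± 17.6 bp (SD, n = 5) in the negative lines, a ratio of 1.97 (exact permutation p = 0.0476, two-sided; adjusted 0.127). Without K562 the difference was 121.6 bp in place of 222.6 bp, and 1 line against 5 cannot give a p below 0.167.

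The width difference depended on which peaks were compared. At matched scores both BCR-ABL1 lines were widest in each of 4 score ranges. Between 100 and 150, the medians were 680 bp in K562 and 486 bp in SUP-B15, against 328 bp in REH, 243 bp in DND41, 227 bp in HPB-ALL, 196 bp in SIL-ALL and 332 bp in JURKAT. Between 300 and 1000 they were 1698 bp in K562 and 1354 bp in SUP-B15, against 587 to 870.5 bp in the negative lines. The exact permutation p was 0.0476, two-sided, in each range. A score may not mean the same in lists of unequal depth, which is unknown. In equal lists, which keep the highest-scored part of the long lists, the median was 552 bp in K562 and 395 bp in SUP-B15, against 244 bp in REH, 361 bp in DND41, 401.5 bp in HPB-ALL, 417.5 bp in SIL-ALL and 381 bp in JURKAT. SUP-B15 then lay within the negative lines, and the difference was 112.5 bp (exact permutation p = 0.238, two-sided).

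**Figure D4:**
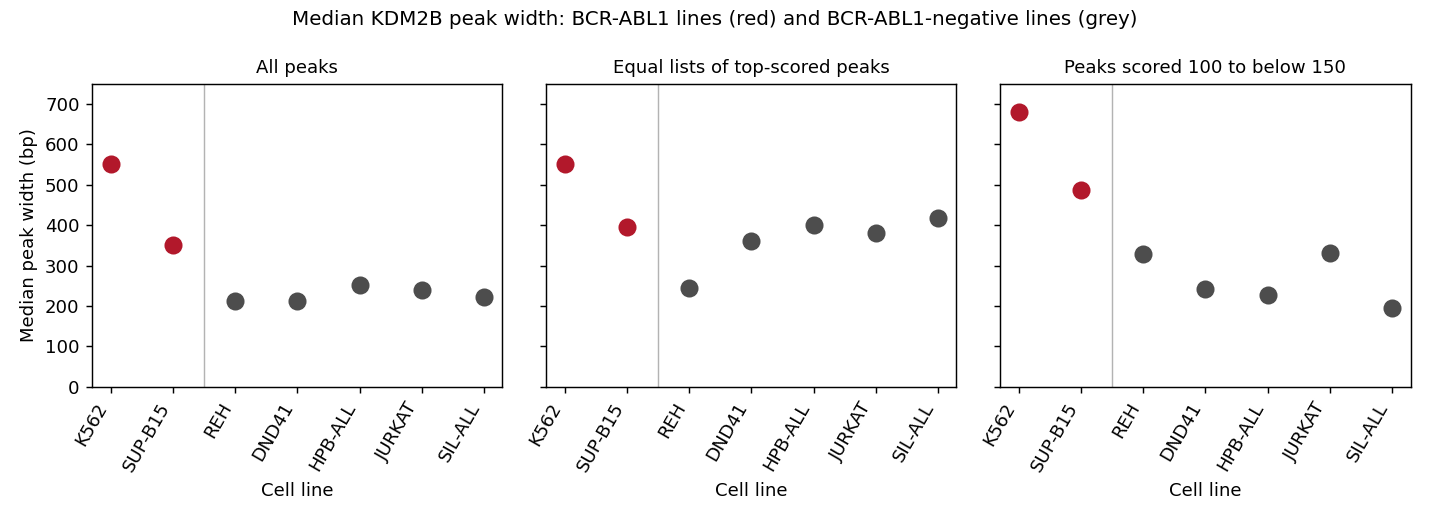
Median peak width (y axis, bp) of each line, BCR-ABL1 lines in red and BCR-ABL1-negative lines in grey, for all peaks, for equal lists of top-scored peaks and for peaks with scores of 100 to below 150. K562 is widest in all 3 panels at 552, 552 and 680 bp, and SUP-B15 lies above the negative lines at 350 and 486 bp for all peaks and matched scores and among them in equal lists.

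Peaks of at least 1 kb made up 18.8% of the K562 list (Wilson 95% interval 17.9 to 19.8%) and 5.40% of the SUP-B15 list (4.91 to 5.94%), against 0.724% in REH, 2.15% in DND41, 3.13% in HPB-ALL, 3.37% in SIL-ALL and 1.92% in JURKAT. Both BCR-ABL1 lines lay above all others, K562 by far the most. The mean was 12.1 ± 9.50% (SD, n = 2) in the BCR-ABL1 lines and 2.26 ± 1.06% (SD, n = 5) in the negative lines, with an exact permutation p of 0.0476, two-sided (adjusted 0.127). The difference was 9.86 percentage points with all lines, 3.14 without K562 and 16.6 without SUP-B15. In equal lists SUP-B15, with 6.85%, lay below SIL-ALL, with 8.67% (exact permutation p = 0.0952, two-sided).

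The covered length did not separate the groups. The lists covered 4.32 Mb in K562 and 3.38 Mb in SUP-B15, against 2.10 Mb in REH, 4.28 Mb in DND41, 4.34 Mb in HPB-ALL, 4.85 Mb in SIL-ALL and 4.57 Mb in JURKAT. The difference of the means was -0.177 Mb (exact permutation p = 0.905, two-sided), and it was 0.291 Mb without SUP-B15 and 0.0285 Mb without SIL-ALL.

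The 709 regions bound in every line show how one site was cut into peaks. They held a mean of 1.36 peaks in K562 and 1.76 in SUP-B15, against 1.83 in REH, 2.57 in DND41, 2.17 in HPB-ALL, 2.29 in SIL-ALL and 2.41 in JURKAT. The BCR-ABL1 lines had the fewest peaks per site, SUP-B15 by a narrow margin over REH. Just 1 peak was called in 71.4% of these regions in K562 and 50.5% in SUP-B15, against 51.8% in REH and 24.3 to 33.3% in the T-ALL lines. The median length covered per region was 998 bp in K562 and 802 bp in SUP-B15, against 423 bp in REH and 879 to 1060 bp in the T-ALL lines. Both BCR-ABL1 lines covered more than all 5 negative lines in 43 regions (6.06%).

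The bands of the fusion partners behaved differently in the 2 fusion lines. In 9q34.12, the 500 kb band of ABL1, K562 had 54 peaks (0.909% of its list; Wilson 95% interval 0.697 to 1.18%) that covered 132.75 kb, with a median width of 1820 bp. SUP-B15 had 2 peaks there, against 3 in REH, 1 in DND41, 1 in HPB-ALL, 2 in SIL-ALL and 11 in JURKAT. SUP-B15 thus lay within the range of the negative lines, and K562 stood apart from all 6. The K562 peaks lay in the distal part of the band, 10, 15 and 26 of them in its last 3 bins of 100 kb, and 1 in the bin after it. The widest ran over 11104 bp (chr9:133806805-133817908; score 942), where JURKAT had 6 separate peaks, REH 3 and SUP-B15 2. The next, of 10618 bp (chr9:133861390-133872007; score 669), overlapped no peak of another line.

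On chromosome 22 the K562 excess lay on the centromeric side of a sharp edge. Band 22q11.21 held 127 K562 peaks (2.14% of the list) and 25 SUP-B15 peaks (0.332%), against 0.431 to 0.479% in the negative lines. Band 22q11.22 held 22 K562 and 5 SUP-B15 peaks, against 3 to 7 in the negative lines. The highest-scored K562 peak of the whole list lay in 22q11.21 (chr22:19704680-19712637; score 2731), and its widest in 22q11.22 (chr22:23408393-23422835; 14443 bp). In 22q11.23, the band of BCR, K562 had 9 peaks and SUP-B15 had 11, against 15 in REH, 27 in DND41, 27 in HPB-ALL, 34 in SIL-ALL and 24 in JURKAT. The last K562 peak before the edge ended at 23566830, and the next began at 25800709. In that interval SUP-B15 had 6 peaks, against 11 in REH, 21 in DND41, 21 in HPB-ALL, 28 in SIL-ALL and 18 in JURKAT. These are counts from lists of unequal length.

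The 4 bands 9q34.12, 22q11.21, 22q11.22 and 22q11.23 together held 3.57% of K562 peaks and 0.571% of SUP-B15 peaks, against 0.662 to 0.761% in the negative lines. They also held 28 of the 50 K562 peaks of at least 3 kb (56%). Copy number was not measured here, and its part in these values was not tested. Without the 4 bands the median width difference was 217.8 bp, the difference in the share of peaks of at least 1 kb was 9.02 percentage points, and the pair alone had 79 regions. The covered length difference was -0.354 Mb without them, in place of -0.177 Mb.

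**Figure D5:**
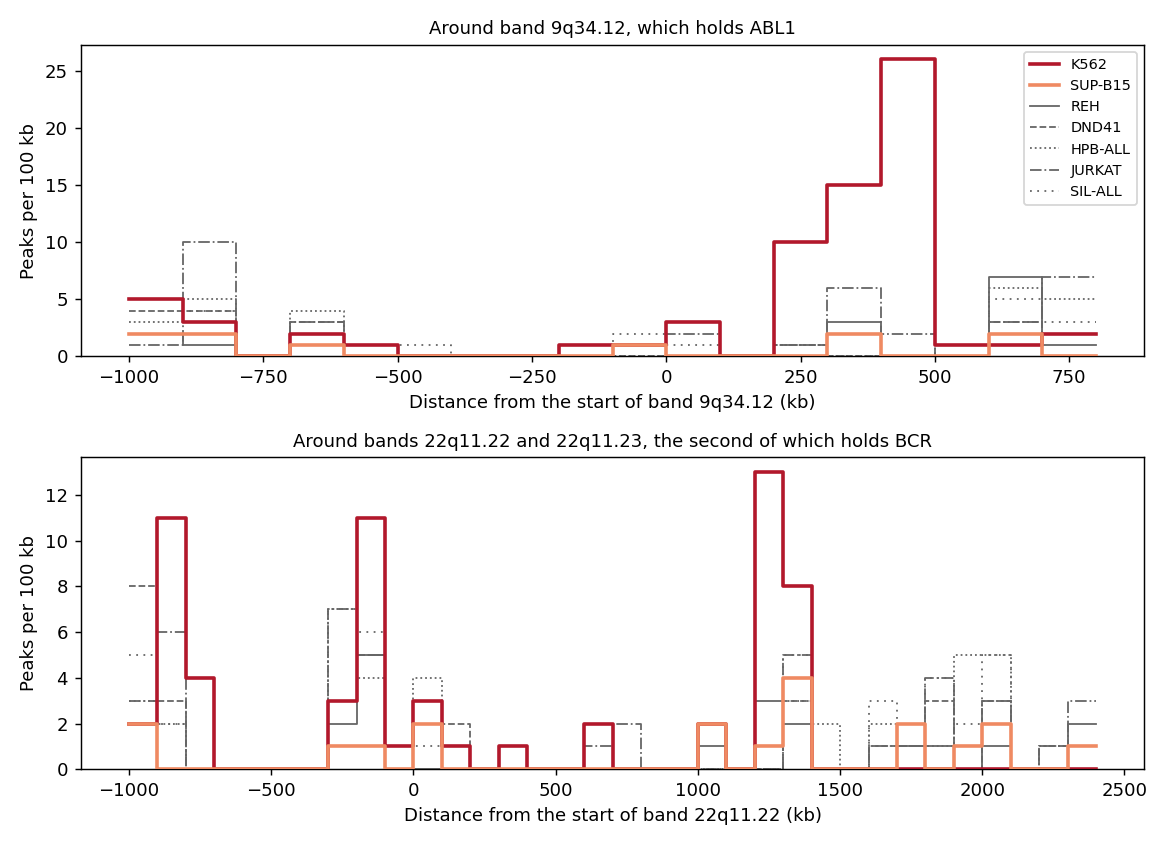
Peaks per 100 kb (y axis) against the distance from the start of band 9q34.12 (top, kb) and of band 22q11.22 (bottom, kb) in K562 (red), SUP-B15 (orange) and the 5 BCR-ABL1-negative lines (grey). K562 reaches 26 peaks per 100 kb near the end of 9q34.12, where SUP-B15 and the negative lines have few, and has no peak over the last part of the lower panel, where the other lines do.

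Across the genome the 2 lines departed together from the 5 others on 5 chromosome arms. Of 44 arms, 1 (2.27%) had a higher share of peaks in both BCR-ABL1 lines than in all negative lines and 4 (9.09%) a lower one. The 20 other pairs departed on 1 to 14 arms with a median of 3, and 5 of them on as many or more. Arm 1q was the high one, with 4.93% of peaks in K562 and 4.81% in SUP-B15, against 3.62 to 4.36% in the negative lines. Arms 10p, 14q, 3q and 4q were the low ones: 14q held 1.72% in K562 and 2.76% in SUP-B15, against 3.09 to 3.64%, and 3q held 2.46% in K562 and 2.51% in SUP-B15, against 2.73 to 3.35%. In equal lists 4q no longer separated the groups, with 1.40% in K562 and 1.58% in SUP-B15, against 1.55 to 3.33%, and 20p did, with 0.320% in K562 and 0.892% in SUP-B15, against 0.909 to 1.46%.

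Of 460 bands with at least 50 peaks over all lists, both BCR-ABL1 lines were highest in 24 (5.22%) and lowest in 44 (9.57%). This total of 68 ranked 4 of the 21 pairs, after SUP-B15 with REH (111), K562 with REH (81) and HPB-ALL with JURKAT (69). Band 1q32.1, which also held 3 of the 80 regions, had 0.740% of K562 peaks and 0.889% of SUP-B15 peaks, against 0.359 to 0.565% in the negative lines. The zinc finger gene band 19q13.43 had 2 K562 peaks and 3 SUP-B15 peaks, against 11 in REH, 25 in DND41, 21 in HPB-ALL, 19 in SIL-ALL and 16 in JURKAT. Giemsa-light bands held 68.0% of the peaks in K562 and 69.7% in SUP-B15, against 69.5% in REH and 64.2 to 66.8% in the T-ALL lines (exact permutation p = 0.190, two-sided, over all 7 lines).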

How the data were processed

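The deposited files were 7 KDM2B ChIP-seq peak lists, 1 per line, each giving a position, a name and a score per peak. Per the submitters' processing notes, reads were aligned with Bowtie 1.1.1 and checked with FastQC 0.10.1, on hg19. The peak names point to MACS. Its version, threshold and control were not given in the sources used here. The score is the authors' deposited value, with no unit stated, and was used to rank or filter peaks; a common floor and the score ranges assume one scale. The lowest score was 50 to 80 by list. Input signal was not analysed here.

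Peaks overlapping by at least 1 bp were merged, and a line was counted as having a region when at least 1 of its peaks fell in it. Groups were compared by exact permutation over the 21 splits of the lines into 2 and 5, smallest p 0.0476. Benjamini-Hochberg adjustment covered 8 tests. Equal lists held the 5942 top-scored peaks of each line. The members, bands and comparisons were chosen with earlier results of these data known. Named regions were the 20 highest of the pair alone and the 5 highest of the negative lines alone, by mean within-list percentile. Alternatives were equal lists, a median or common score floor, a 500 bp merging distance, autosomes, 50% reciprocal overlap, mean width and each line left out. The fusion bands left out and the score ranges were added after seeing the data. Wilson 95% intervals cover counting error only. The counting recovered planted regions in simulated lists. Peaks of different lines overlapped there only where planted, so chance overlap and chained merging were not tested. Bands came from the hg19 table of circlize 0.4.16. The gene table used here was GRCh38.p14, another build, so peaks were not assigned to genes and no sequence is shown. Computations used Python 3.11.15, numpy 2.4.6, pandas 2.3.3, scipy 1.17.1 and matplotlib 3.10.9.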

Additional observations from a re-analysis of the deposited data

Results flagged for a closer look

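Of 18 values examined within the 5 BCR-ABL1-negative lines, 2 had a line far from the rest. Chance gives about 0.9 (1 in 20 such groups) for independent values. These values came from the same 5 lists and are not independent, so that number is a rough guide only. In both flagged values the line was REH. Its list covered 2.10 Mb, against 4.28 Mb in the nearest line and 4.85 Mb in the farthest. In the regions bound in all 7 lines it covered a median of 423 bp per region, against 879 bp in the nearest line and 1060 bp in the farthest. REH is the single negative line that is not T-ALL.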

How the results depend on the processing

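Of 109 alternative values, 67 stayed on the same side of the threshold or moved little, 26 lost the threshold, 12 moved, 3 reversed and 1 passed the threshold. The count of the pair alone, 80, was 130 with equal lists, 41 with the upper part of each list by score (from its median up), 41 with a common floor, 50 with a 500 bp merging distance, 153 with 50% reciprocal overlap, 1963 whatever the other lines had, and 88 to 139 with a negative line left out (139 without REH). The count of the negative lines alone, 227, was 58 with equal lists, 101 with the upper part, 99 with a common floor, 86 with reciprocal overlap, and 273 to 880 with a negative line left out (880 without REH). Phi of the pair was 0.0724 with reciprocal overlap (exact permutation p = 0.0476). The median width difference was 112.5 bp with equal lists and 121.6 to 323.6 bp with a line left out. With peaks within 500 bp joined it was 226.6 bp (exact permutation p = 0.0476, two-sided). The median of SUP-B15 was then 448 bp, beside 424 bp in DND41, the widest negative line. The peak number difference was 0 with equal lists by construction, -6261 with a common floor and -7726 to -5667 with a line left out. The difference in peaks of at least 1 kb was 7.52 points with equal lists, 10.7 with peaks within 500 bp joined and 3.14 to 16.6 with a line left out. The covered length difference reversed to 0.990 Mb with equal lists, 0.291 Mb without SUP-B15 and 0.0285 Mb without SIL-ALL, and ranged from -0.660 to 0.291 Mb with a line left out. With 6 lines the smallest p is 0.0667 (2 lines against 4) or 0.167 (1 against 5), so no test can pass there; otherwise the cause was not tested. No paired analysis was possible because there was 1 list per line. Depth is unknown, and no replicate separates a line from its library.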

Other observations

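K562 had 5183 regions, of which 1516 (29.2%) had no peak of another line, and SUP-B15 had 5989, of which 1519 (25.4%) had none. In 9q34.11, the band centromeric to the ABL1 band, both lines had a larger share of their peaks than all 5 negative lines. The shares there were 0.909% in K562 and 0.757% in SUP-B15, against 0.408 to 0.638%. SUP-B15 had 57 peaks and REH 52, and their Wilson intervals overlapped (0.585 to 0.979% in SUP-B15, 0.487 to 0.836% in REH). Bands 9q34.11 and 17q21.31 were among the 24 of 460 bands (5.22%) in which both BCR-ABL1 lines were highest. A link of either band to the fusion was not tested. In 17q21.31 the shares were 0.909% in K562 and 0.584% in SUP-B15, against 0.415 to 0.479% in the negative lines.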
